A study of Mus musculus with 4 samples.

Results

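The piRNA rows of a sperm small RNA survey carry 2 kinds of name, and those described here are named by a chromosome, a band and a number, such as 15-qE1-8387. They were chosen by name alone: all rows of the piRNA class that do not begin with "pi-", the prefix of loci named for a host gene. The choice gave 216 rows at 100 loci, out of 461 piRNA rows at 214 loci and 2150 rows in the 5 small RNA classes of the tables (miRNA, tRNA, piRNA, rRNA and repeats). Names that differ only in the digit after the last dot are isoforms of 1 locus. Of the 100 loci, 30 had 1 isoform, 42 had 2, 18 had 3 and the rest had more, up to 7.

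Small RNA came from spermatozoa of the cauda epididymis, where sperm are stored, of 4 adult C57BL/6 mice, with 1 library per mouse, all in 1 sequencing lane. The labels call 2 mice "Original cross" and 2 mice "Extra cross to wildtype", and the study's title contrasts sperm by their susceptibility to LoxP silencing (LoxP is the DNA site that Cre recombinase cuts). They give no genotype, Cre line or driver, and do not say which cross was susceptible. The tables also list a feature named LSD1_floxed, at 5.37 and 3.32 RPM in original-cross mice (replicate 1 rescaled) against 4.08 and 2.18 RPM in extra-cross mice. RPM, the authors' unit, is a read number scaled to library depth. The value of 1 read was 1.58 and 0.561 RPM in original-cross replicates 1 and 2, and 0.642 and 0.238 RPM in extra-cross replicates 1 and 2, so original-cross replicate 1 was the shallowest library. The tables hold no read counts, and numbers of reads given below are RPM divided by the value of 1 read.

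piRNAs are short RNAs that guide PIWI proteins in germ cells, where they silence transposons and other transcripts. They are cut from long single-stranded precursors made at discrete genomic loci. In the mouse testis the loci between genes are mostly of the pachytene kind, switched on by the transcription factor A-MYB as spermatocytes enter pachytene, and many are transcribed as divergent pairs. The tables give no coordinates, strand, length or kind for a locus, so no sequence is shown and RPM ranks loci by their reads, not by reads per length.

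The authors' rule for counting isoforms is not given in the sources used here, but the values look like reads divided among the isoforms of a locus. Among the 4 loci of 4 isoforms with up to 60 reads, the summed isoforms came to whole reads (within 0.02) at 100% of loci in each library, while the highest isoform alone did so at 0% to 75%. Over all loci of 2 or more isoforms the sums were whole at 46.2% to 58.1% of loci and the highest isoform at 10.3% to 23.3%, against 41.2% to 72.7% for loci of 1 isoform. Values of a locus below are for this reason sums over its isoforms. Fold changes are differences in log2(RPM + 1), extra cross minus original cross, from limma.

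As a group the band-named loci were lower in the extra cross. Their sum was 15161 and 8008 RPM in original-cross replicates 1 and 2, against 3532 and 3189 RPM in extra-cross replicates 1 and 2, and both extra-cross sums lay below both original-cross sums. The original cross held 11585 ± 5058 RPM (SD, n = 2) and the extra cross 3360 ± 243 RPM (SD, n = 2), a 3.45-fold difference of means. It was 4.29-fold in the table of replicate 1 and 2.51-fold in that of replicate 2. As part of the 5 small RNA classes, the loci made up 2.73% and 1.61% in the original cross and 0.528% and 0.639% in the extra cross. An exact permutation test of the log2 sums gave p = 0.33 (two-sided), the smallest p that 2 against 2 libraries allow. In bulk sperm RNA, fewer cells that hold piRNA and less piRNA per cell cannot be told apart.

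**Figure D1:**
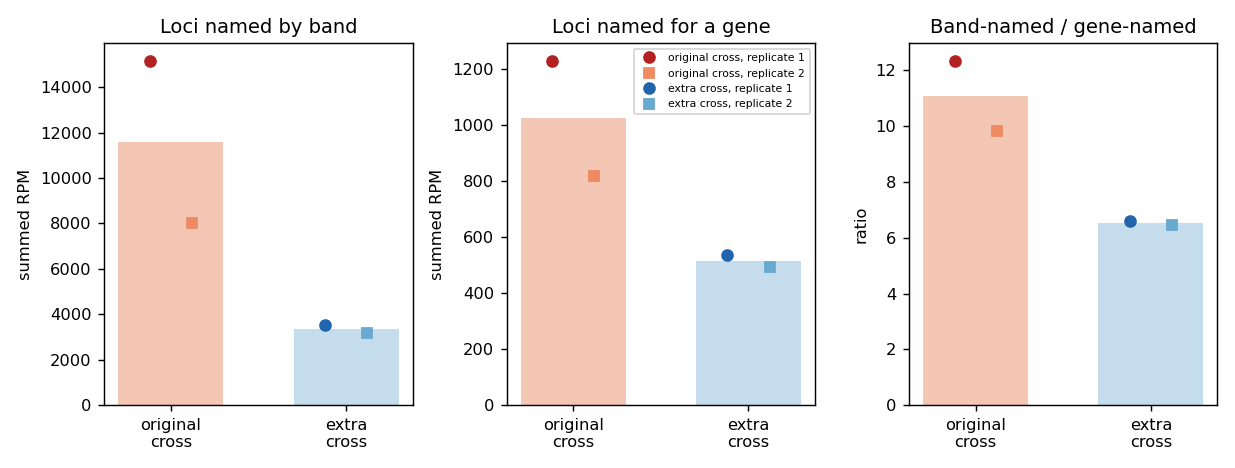
Summed RPM of the band-named loci (left) and of the loci named for a host gene (middle), and the ratio of the 2 sums (right); points are libraries and bars are means of 2 libraries. Both sums and the ratio were higher in both original-cross libraries than in both extra-cross libraries, and the original-cross libraries lay further apart than the extra-cross libraries.

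Stromal transcripts were lower in the extra cross too, and the tested epithelial ones had positive log2 fold changes, with 0 of either list past limma's adjusted p (0% of 477 tested RefSeq genes). The collagen mRNAs Col1a1, Col1a2 and Col3a1 and the matrix protein mRNA Sparc were the tested members of an 8-gene list of smooth muscle and stroma, which summed to 2797 and 3497 RPM in original-cross mice against 1180 and 1457 RPM in extra-cross mice. At an unadjusted p below 0.05, all 4 tested members were lower, against 23.9% of tested RefSeq genes in either direction. By contrast, 5 microRNA hairpins of epididymal epithelium summed to 4394 and 2055 against 10409 and 5315 RPM. At 3 of the 5 both extra-cross libraries lay above both original-cross libraries, against 4.47% of all 760 small RNA rows tested, and mir-200a and mir-200b overlapped. An unadjusted p below 0.05 (limma) was reached by 0 of the 5, against 14.7% of those rows in either direction. The 11 epithelial transcripts listed summed to 49.5 and 145 against 150.2 and 168 RPM. Of these 11, 4 were tested, and 1 was higher at an unadjusted p below 0.05 (limma), against the same 23.9% in either direction. The low sum of 49.5 RPM was that of original-cross replicate 1, the shallowest library. Original-cross replicate 2, at 145 RPM, lay near the extra-cross sums. The microRNAs of stroma summed to 8632 and 6299 against 3427 and 5101 RPM, with 0 of 7 past the adjusted p. All 7 had negative log2 fold changes, where the median over all 760 small RNA rows tested was -0.12. Both extra-cross libraries lay below both original-cross libraries at 4 of the 7, against 26.8% of those rows. The microRNAs of blood summed to 6520 and 1229 against 11186 and 1136 RPM. The microRNAs of spermatogenic cells, nearly all mir-34c, summed to 1923 and 749 against 1813 and 1205 RPM and overlapped between crosses, with log2 fold changes of 0.29 for mir-34c and 0.54 for mir-34b (limma adjusted p = 0.995 each). The defining transcripts of meiotic cells and round spermatids were at or near 0: of 10 members, 4 had a row, their sum was 0 RPM in both original-cross libraries and at most 0.713 RPM in the extra cross, and Sycp1, Stra8 and Acrv1 had no row. Sertoli and Leydig cell transcripts summed to 6.42 to 12.9 RPM, those of blood to 43.4 to 106 RPM, and those of sperm itself (protamines, transition proteins, tail proteins) to only 4.74 to 11.6 RPM. The part of other cells in the piRNA difference was not tested.

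Nearly every locus shared in the difference. Without any filter, 95 of the 100 loci were lower in the extra cross in both tables, against 32.9% of all 1903 small RNA features counted with piRNA isoforms summed. At 90 of the 100 loci both extra-cross libraries lay below both original-cross libraries, against 19.9% of all features. The 10 loci that overlapped were 5-qF-4633, 7-qF3-3125, 1-qE2.3-2, 17-qA3.3-352, 13-qA5-208, 7-qD2-40, 2-qE5-4, 10-qC1-117, 13-qA3.1-213 and 7-qF3-246.

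No row passed limma across all features, which had cross as its only term. Of 109 isoform rows with a mean of at least 10 RPM, 0 had a Benjamini-Hochberg adjusted p below 0.05, as did 0% of all 760 rows tested. At an unadjusted p below 0.05, 98 of the 109 rows were lower in the extra cross and 0 were higher, against 13.9% of all rows lower and 0.789% higher. With isoforms summed, 65 of 73 tested loci were lower at that level (10.2% of all 733 features), again with 0 past the adjusted threshold. With 1 library left out the count over rows was 45 of 89 without original-cross replicate 1 (6.71% of all rows tested), 94 of 106 without original-cross replicate 2 (13.9%), 37 of 120 without extra-cross replicate 1 (8.36%) and 23 of 119 without extra-cross replicate 2 (7.96%). Unlike the counts before them, these counts and shares are for either direction. In these fits the lone library of a cross is assumed to vary like the other cross. The lowest adjusted p was 0.299 for a summed locus. Of the 73 loci, 53 also had a mean of at least 10 RPM in the extra cross alone, and 20 passed the minimum only through the original cross.

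The size of the difference was much alike from locus to locus. The median log2 fold change of the 73 tested loci was -1.87, with quartiles of -1.97 and -1.70, and 56 loci lay between -2.2 and -1.5. It was -1.87 too over the 53 loci that also reached 10 RPM in the extra cross. The median over all 733 tested features was -0.10. The fold was larger in the replicate 1 table at 67 of the 73 loci, with a median of 4.85-fold there and 2.87-fold in the replicate 2 table. A shift common to the loci lay in the original cross: replicate 1 held a median of 1.94 times the RPM of replicate 2 there, and 1.104 times in the extra cross. From locus to locus this ratio ran from 1.13 to 3.00 in the original cross and from 0.49 to 4.77 in the extra cross. Across the 73 loci, log2 fold changes in the replicate 1 and replicate 2 tables correlated weakly (Spearman 0.12, Pearson 0.33). The order of loci by fold thus hardly repeated between the tables.

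**Figure D2:**
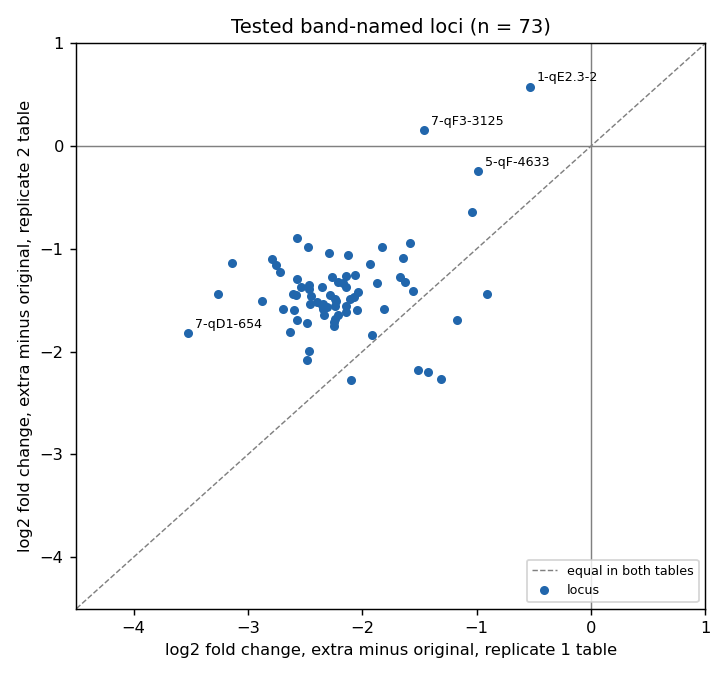
Log2 fold change of each of the 73 tested loci (isoforms summed), extra cross minus original cross, in the replicate 1 table (x axis) and in the replicate 2 table (y axis); the dashed line marks equal values. Most loci form 1 cloud above the dashed line, and 5-qF-4633, 7-qF3-3125 and 1-qE2.3-2 lie apart towards 0.

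Reads were concentrated in few loci. The top 10 held 45.8% of the band-named sum in both original-cross libraries and 51.5% and 51.2% in the extra-cross libraries. Means over the 4 libraries ran from 0.737 to 839 RPM with a median of 27.3 RPM, and 23 loci reached 100 RPM. The loci lay on 18 of the autosomes in 53 bands, and none was on chromosome X. Their order was much the same in all libraries, with a Spearman correlation across the 100 loci of 0.95 to 0.98 for each of the 6 pairs of libraries, which share the division of reads among isoforms and, between loci, differences in length.

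The second most abundant locus, 17-qA3.3-26735, had 800.1 and 452 RPM in original-cross mice against 169 and 153 RPM in extra-cross mice. Another locus of band qA3.3 of chromosome 17, 17-qA3.3-27363, had 743 and 376 against 159.8 and 150.2 RPM, with nearly the same log2 fold change (-1.76 ± 0.56, SE, against -1.90 ± 0.53). At 18-qE1-36451, which carries the highest number in its name, the values were 757 and 369 against 124 and 121 RPM. This locus had the largest fold difference of the 10 most abundant, 4.59-fold between means. The 2-qE1-35981 locus had 693 and 418 against 139 and 140.02 RPM. On chromosome 9, 9-qC-31469 had 541 and 299 against 128 and 108 RPM and 9-qA5.3-24188 had 469.7 and 247 against 84.2 and 96.6 RPM. None of these loci overlapped between crosses, and the original-cross libraries of each differed by about as much as those of the sum. The other 3 of the 10, 6-qF3-28913, 7-qD2-24830 and 15-qD1-17920, behaved alike, with folds of 4.08, 4.09 and 3.76 between means and limma adjusted p of 0.299 each.

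**Figure D3:**
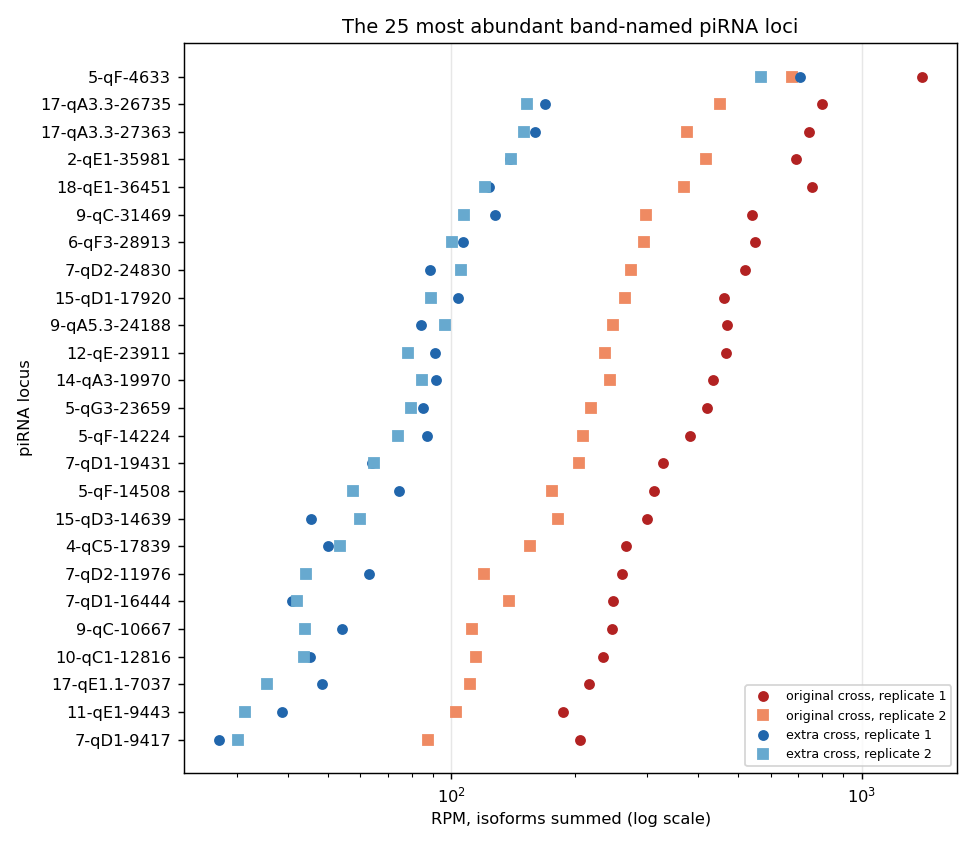
RPM (log scale, isoforms summed) of the 25 most abundant band-named loci in the 4 libraries, ordered by their mean. In each locus but 5-qF-4633 both extra-cross points lie to the left of both original-cross points.

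The most abundant locus of all, 5-qF-4633 on chromosome 5, departed from the rest. It had 1405 and 675 RPM in original-cross mice against 707 and 569 RPM in extra-cross mice, so that extra-cross replicate 1 lay above original-cross replicate 2. These values stand for 889 and 1203 reads in the original cross and 1101 and 2392 reads in the extra cross. Its fold was 1.99 in the replicate 1 table and 1.19 in the replicate 2 table, and its log2 fold change was -0.62 ± 0.60 (SE, limma adjusted p = 0.994). It held 9.26% and 8.43% of the band-named sum in the original cross against 20.01% and 17.8% in the extra cross, 10.1 percentage points more between means. The mean share of every other locus of the top 10 was lower in the extra cross, at 0.762 to 0.963 times that in the original cross. A larger share of 1 locus by itself lowers the shares of the others. Of the 73 tested loci, 34 had a lower share in both extra-cross libraries than in both original-cross libraries, and 6 a higher one. With 5-qF-4633 left out of the total, 13 of 72 were lower and 12 higher. The like share over all features was not counted, and with 2 libraries per cross some loci separate by chance alone. The difference in share of 5-qF-4633 is a description without a test, since the locus was singled out for it. Without this locus the band-named sum was 3.87-fold higher in the original cross, in place of 3.45-fold.

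Both other loci of band qF differed by about as much as the median locus. The locus 5-qF-14224 had 381 and 209 RPM in original-cross mice against 87.4 and 74.0 RPM in extra-cross mice. The other, 5-qF-14508, had 311 and 176 against 74.5 and 57.5 RPM. Both were lower in both extra-cross libraries, with log2 fold changes of -1.80 ± 0.52 and -1.82 ± 0.51 (SE). Chromosome 5 as a whole had the smallest fold of any chromosome, 2.22, and 3.75 without 5-qF-4633. On the other chromosomes the fold between summed means ran from 2.87 on chromosome 13 to 4.54 on chromosome 18.

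A pair of less abundant loci stood apart in the same direction. At 7-qF3-3125 the original cross had 128 and 54.4 RPM and the extra cross 45.8 and 60.7 RPM, so the replicate 2 table went the other way. At 1-qE2.3-2 the values were 23.7 and 10.7 against 16.05 and 16.4 RPM, a log2 fold change of 0.02 ± 0.53 (SE), the only tested locus not negative. That direction is not firm, since it turned to -0.10 when the libraries were rescaled to the sum of the 5 classes and to -0.52 without original-cross replicate 2. This locus rests on 15 and 19 reads in the original cross and 25 and 69 reads in the extra cross.

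Each class was then scaled to 1 sum in all libraries, so that a change of the class total drops out and what remains is the share of each row within it. With that scaling the median log2 fold change was -0.26 (1 row per locus), and 0 of 111 band-named rows passed limma's adjusted threshold (0% of 771 features). With isoforms summed, 2 of 73 loci had an unadjusted p below 0.05, against 2.29% of all 741 features, a share near the background. They were 1-qE2.3-2 and 5-qF-4633, both higher in the extra cross, and 7-qF3-3125 did not reach that level. Over isoform rows the count was 6 of 111 (2.59% of all features), namely 1 row of 1-qE2.3-2, 2 of 5-qF-4633 and 3 of 7-qF3-3125, and rows of 1 locus are not independent.

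**Figure D4:**
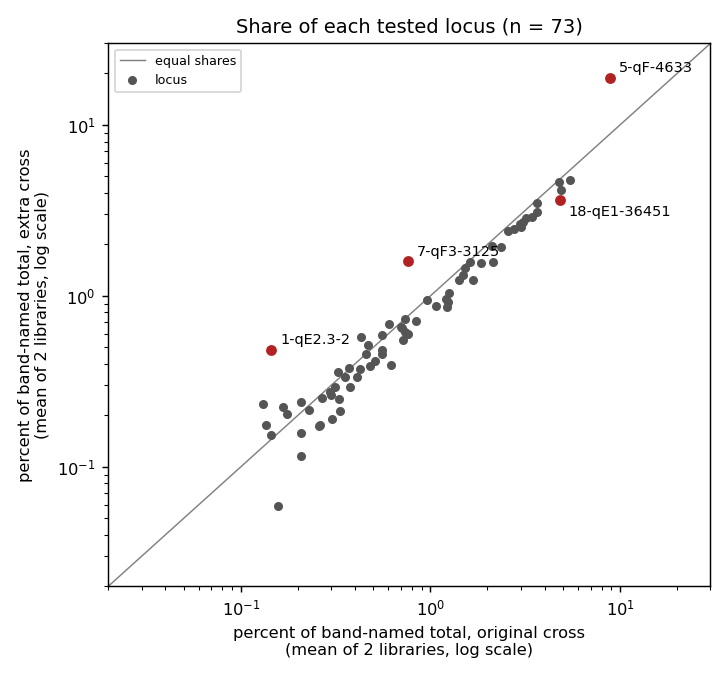
Share of the band-named sum held by each of the 73 tested loci in the original cross (x axis) and the extra cross (y axis), as means of 2 libraries on log scales; the line marks equal shares and red points are the loci written beside them. Most loci lie along or just under the line, and the large extra-cross share of 5-qF-4633 by itself lowers the other shares. Some loci lie above the line, 5-qF-4633, 7-qF3-3125 and 1-qE2.3-2 the furthest.

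With isoforms summed, the 5 lowest limma p-values belonged to 15-qE1-3710, 15-qE1-8387, 7-qD1-16444, 7-qD1-654 and 15-qD3-14639. At 15-qE1-3710 the original cross had 83.7 and 55.5 RPM and the extra cross 14.1 and 12.4 RPM, a log2 fold change of -2.28 ± 0.43 (SE). In the same band, 15-qE1-8387 had 158 and 114 against 27.4 and 34.1 RPM (-2.10 ± 0.43). In band qD3 of that chromosome, 15-qD3-14639 had 300.2 and 182 against 45.6 and 59.99 RPM (-2.14 ± 0.49). The original-cross libraries of these 3 loci lay closer together than at most others, and limma's adjusted p was 0.299 for each. In band qD1 of chromosome 7, 7-qD1-16444 had 248 and 138 against 40.8 and 42.1 RPM and 7-qD1-9417 had 205 and 87.9 against 27.2 and 30.2 RPM. Another locus there, 7-qD1-654, had the most negative log2 fold change of the tested loci (-2.67 ± 0.61, SE). It rests on 2 reads in extra-cross replicate 1 and passed the minimum only through the original cross. At 4-qD2.2-2182 the values were 54.25 and 24.5 against 8.99 and 5.39 RPM. That locus also passed the minimum only through the original cross.

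In band qF3 of chromosome 6, the log2 fold change was -1.95 at 6-qF3-28913, -1.70 at 6-qF3-8009, -1.96 at 6-qF3-3040 and -2.19 at 6-qF3-1063. The levels of these 4 loci spanned 263 to 17.9 RPM on average over the 4 libraries. The least abundant, 6-qF3-1063, passed the minimum only through the original cross, with a mean of 5.93 RPM in the extra cross. Unlike these 4, the least abundant locus of band qA3.3 on chromosome 17, 17-qA3.3-352, had 22.4 and 9.18 against 10.4 and 5.55 RPM and overlapped between crosses. It too passed the minimum only through the original cross. A pair of loci on chromosome 13, 13-qB1-1517 and 13-qA5-464, had smaller differences than the median (-1.36 ± 0.44 and -1.26 ± 0.68, SE) without overlap. The value of 13-qA5-464 ran from -2.02 without original-cross replicate 2 to -0.51 without original-cross replicate 1, and 13-qB1-1517 passed the minimum only through the original cross. The 3 loci next below the minimum, 10-qC2-545, 11-qE1-3997 and 1-qC1.3-637, had means of 9.22, 9.19 and 8.92 RPM, and each was lower in both extra-cross libraries.

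Isoforms of a locus had similar values at most loci and far different ones at some. Of the 70 loci with 2 or more isoforms, 7 had identical values for all isoforms in all 4 libraries, and at 41 the highest isoform had under 1.5 times the mean RPM of the lowest. At 15 loci it had over 5 times as much. Isoform 3 of 15-qD1-4001 had 117 and 49.8 RPM in original-cross mice against 18.9 and 17.8 RPM in extra-cross mice, while isoform 1 had at most 1.05 RPM. Likewise isoform 2 of 8-qE1-3748 had 80.8 and 45.1 against 18.1 and 21.2 RPM, while its isoform 1 had 1.58 RPM in original-cross replicate 1 and 0 elsewhere. At 13-qA5-464 isoform 3 held 24.8 and 9.66 against 7.48 and 4.56 RPM and isoform 5 was at 0 RPM in all libraries but extra-cross replicate 1 (0.0584 RPM).

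The number that ends a name, which the tables do not explain, tracked the reads of the locus. Across the 100 loci its Spearman correlation with RPM was 0.91 in both original-cross libraries and 0.85 and 0.88 in the extra-cross libraries, a description over loci that share library and annotation. The 21 loci with a number of 10000 or more held 62.8% of the band-named sum in the original cross and 54.9% in the extra cross. Their fold between summed means was 3.94, against 2.80 for the 43 loci numbered from 1000 to under 10000, which include 5-qF-4633, 3.55 for the 32 loci numbered from 100 to under 1000 and 1.25 for the 4 loci numbered below 100. The most abundant locus, 5-qF-4633, ranked only 33 by its number, and 1-qE2.3-2 ranked 63 by RPM and 100 by its number. The other 3 loci with a number below 100 also had low reads, with 7-qD2-40 at 6.32 and 12.4 RPM in original-cross mice against 5.78 and 6.90 RPM in extra-cross mice.

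**Figure D5:**
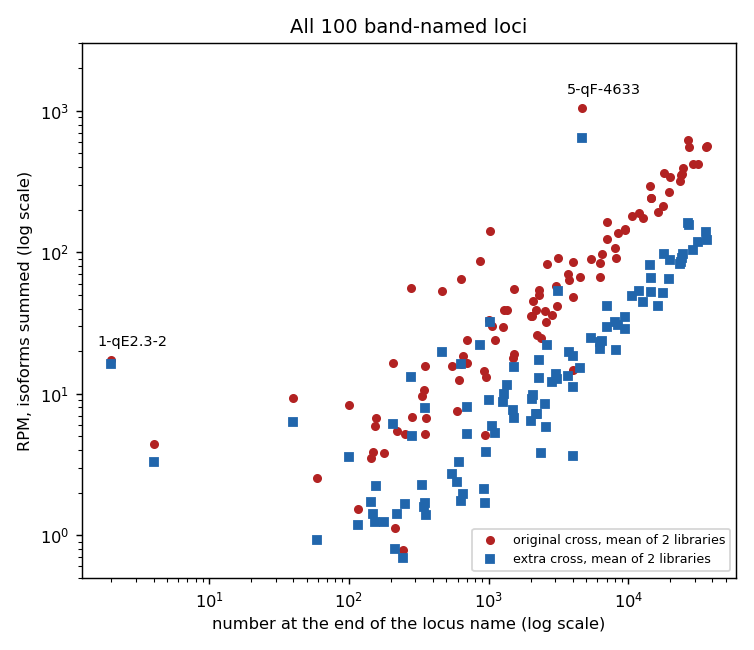
RPM of all 100 band-named loci (isoforms summed, log scale, mean of 2 libraries per cross) against the number at the end of the name (log scale). Both crosses rise with the number, the extra cross lower, and 5-qF-4633 lies above the loci of like number in both crosses.

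The loci named for a host gene are the group most like these, and their fold between crosses was smaller. Their 114 loci summed to 1230 and 818 RPM in original-cross mice against 536 and 495 RPM in extra-cross mice, a 1.99-fold difference of means. The ratio of the band-named to the gene-named sum was 12.3 and 9.80 in the original cross and 6.59 and 6.45 in the extra cross, without overlap, and 1.70-fold higher in the original cross between means. The exact permutation test of that ratio gave p = 0.33 (two-sided), again the smallest possible. With 5-qF-4633 left out the ratio was 11.2 and 8.97 against 5.27 and 5.30. At 61 of the 114 gene-named loci both extra-cross libraries lay below both original-cross libraries, against 19.9% of all features. Among loci that passed the minimum, this held for 18 of 21 gene-named and 68 of 73 band-named loci, against 24% of all tested features. Of these 73 band-named loci, 20 passed only through the original cross, which by itself favours lower values in the extra cross. The like number of gene-named loci was not counted. The median log2 fold change over the 21 tested gene-named loci was -0.73.

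Transcripts of the piRNA pathway itself amounted to a few reads at most. Of 30 genes listed, 10 had a row among the RefSeq transcripts, 3 of them above 0 in all 4 libraries, and 0 reached the mean of 10 RPM needed for the test. Tdrd7, a Tudor protein of germ granules, had 2.45 and 0.421 RPM in original-cross mice against 2.05 and 0.939 RPM in extra-cross mice. The arginine methyltransferase gene Prmt5, whose enzyme modifies PIWI proteins, had 1.58 and 1.68 against 1.28 and 0.713 RPM. For Pld6, which encodes a mitochondrial enzyme of piRNA processing, the values were 0 and 1.40 against 1.12 and 0.357 RPM. Piwil2, the gene of the PIWI protein MILI, had 1.05 and 0.374 against 0.428 and 0.159 RPM. The gene of A-MYB, Mybl1, was listed at 0 in 3 libraries, and Piwil1, the gene of MIWI, had no row. At so few reads no difference was detectable.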

How the data were processed

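The authors deposited RPM values, per the file headers, in 2 tables, 1 per replicate number, each with a column per cross. CASAVA 1.8.2, Bowtie 1.1.2 and mm10 are listed without role or order, per the submitters' processing notes. Trimming, annotation and the treatment of reads with several matches: not given in the sources used here. A feature absent from either table was set to 0 there.

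The commonest miRNA value of a column was taken as 1 read. RefSeq rows of original-cross replicate 1 were on another scale and were multiplied by 26.2, the ratio of the 1-read values. RefSeq accessions were summed to genes through the RefSeq table of GRCm38.p6 (55917 of 68434 matched).

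limma 3.58.1 (R 4.3.3) was fitted to log2(RPM + 1) where the mean reached 10 RPM, with a variance trend and no covariate but cross, and p-values were adjusted over all features. Tested on simulated data for the 760 isoform rows, the fit recovered 4%, 26%, 80% and 92% of changes of 2, 4, 8 and 16-fold, with 10 false calls among 111. The simulated rows varied independently, while real isoform rows of 1 locus do not, so these rates need not hold for them. Tables were prepared with Python 3.11.15 and pandas 2.3.3.

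The members and lists were chosen with earlier results of these data known. Named loci are the 10 most abundant, those with the lowest p and the extreme fold changes, loci of the 3 most abundant bands holding 2 or more loci, the 3 largest isoform differences and the 3 highest below the minimum. Loci listed for overlap, 7-qD1-654 and 7-qD2-40 were named after their values were seen. The sum over isoforms, and leaving out 5-qF-4633, were added after seeing the data.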

Additional observations from a re-analysis of the deposited data

How the results depend on the processing

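With 2 mice per cross no test could pass a permutation threshold, and original-cross replicate 1 is the shallowest library. The median log2 fold change of the loci, with 1 row per locus, was -1.82 and stayed negative under every alternative run. It ran from -2.29 to -1.40 with 1 library left out, was -1.40 with median-ratio scaling, and was -0.26 with each class scaled to 1 sum, which divides out the shift of the class. The count of band-named rows with an unadjusted p below 0.05, 98 of 109, was 36 of 43 with a mean of at least 50 RPM, 58 of 63 with 1 row per locus and 65 of 73 with isoforms summed, where fewer rows were tested. It ran from 23 to 94 with 1 library left out: 45 of 89 without original-cross replicate 1, 37 of 120 without extra-cross replicate 1 and 23 of 119 without extra-cross replicate 2, where fewer samples were fitted. The count past the adjusted p was 0 with each library left out (lowest 0, highest 0).

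With the replicate number as a block, 103 of 109 rows passed limma's adjusted threshold, as did 171 of all 760 rows (22.5%). The deviations of same-numbered libraries from their group means correlated at 0.87 across 760 features, but with 2 pairs this is 1 value, and the labels do not say that the number marks a shared litter or day. Of 351 alternative values for the 28 named and tested loci, 325 kept direction and side of the threshold, 24 passed it under the block alone, and 2 turned direction: 1-qE2.3-2, at -0.10 when rescaled to the sum of the 5 classes and between -0.52 (original-cross replicate 2 left out) and 0.56 (original-cross replicate 1 left out) over the leave-one-out values. The difference in share of 5-qF-4633 was 8.21 percentage points with 1 row per locus, and 8.99 to 11.2 with 1 library left out. Band-named sums differed by -1.72 on the log2 scale (-2.18 to -1.25 with 1 library left out).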
